A study of Mus musculus with 4 samples.

Results

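The 36 genes described here belong to the integrated stress response and the unfolded protein response. They were taken from the deposited expression table by gene symbol, from a list grouped into 3 branches: 15 genes of the ATF4 branch, 5 sensors and regulators, and 16 genes of the XBP1 and ATF6 branch. All 36 of the listed symbols were found among the 45803 symbols of the table, and all 36 passed the filter on low values. The study profiled epidermal keratinocytes of newborn mice (postnatal day 0) by RNA sequencing. The conditional knockout animals (cKO) had the genotype K14Cre,Mettl14F/F, and the control animals (Ctrl) had K14Cre,Mettl14F/+, with 2 libraries in each group and none treated. Both groups therefore carried the K14Cre transgene, in which the keratin 14 promoter directs Cre recombinase to basal keratinocytes and their descendants, and the controls kept a single intact Mettl14 allele beside a floxed one. The labels do not say whether a library came from 1 animal or from several, so the spread between libraries may be technical.

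In the integrated stress response, kinases that sense different kinds of stress phosphorylate the initiation factor eIF2α. General protein synthesis then slows while the transcription factor ATF4 is translated, and ATF4 raises genes for amino acid synthesis, amino acid transport and tRNA charging. In the unfolded protein response, PERK (itself an eIF2α kinase), IRE1 and ATF6 sense unfolded protein in the endoplasmic reticulum (ER), and the factors XBP1 and ATF6 raise ER chaperones, disulfide isomerases and the machinery that degrades misfolded ER proteins. Components of the unfolded protein response are known to be active as keratinocytes differentiate. METTL14 is a subunit of the complex that writes N6-methyladenosine on RNA.

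Mettl14 itself measured 5.89 and 3.79 FPKM in cKO libraries 1 and 2, against 7 and 6.4 FPKM in Ctrl libraries 1 and 2, and did not pass the test (log2 difference -0.42 ± 0.26, SE; adjusted p = 0.959). That value sums whole transcripts and does not isolate the floxed part. FPKM is the number of fragments divided by transcript length and by library depth, so levels can be compared between genes. Low values implied depths of 16892699 and 25689993 reads or fragments in cKO libraries 1 and 2, and of 17365779 and 23395450 in Ctrl libraries 1 and 2. Libraries with the same replicate number shared features in both genotypes. Retained-intron transcripts took 4.01% and 2.28% of the summed FPKM in cKO libraries 1 and 2, and 4.66% and 2.83% in Ctrl libraries 1 and 2. The genotype difference is therefore also given within each replicate number. The keratinocyte markers Krt5, Krt14 and Krt10 ranked among abundant transcripts, from 500.4 to 15342 FPKM in the 4 libraries. Krt1 was listed at 0 in all 4, which does not show that the cells lacked it. Whether that 0 comes from the cells or from the quantification was not tested. The 4 endothelial markers summed to 0.78 and 1.62 FPKM in cKO and 1.28 and 0.57 in Ctrl, and of the 4 plasma cell markers Jchain, Mzb1 and Igkc lay between 0 and 0.22 FPKM. The fourth, Sdc1, which keratinocytes also express, measured 246 and 261 FPKM in cKO and 181 and 162 in Ctrl.

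With genotype alone in the fit, no member passed limma's test between genotypes. A fit with a block for replicate number is described in the closing sections. Of the 36 genes, 0 were called at an adjusted p under 0.05, higher or lower, against 0.00% of the 13817 genes tested in either direction, and 0 reached an unadjusted p under 0.05, against 3.29% of all genes in the higher and 1.68% in the lower direction. The smallest unadjusted p among the members was 0.0568 (Manf). A p that misses the threshold does not show that levels were equal: the 95% intervals in the plot of differences reach from -1.17 (Hsp90b1) to 1.18 (Hspa5) on the log2(FPKM + 1) scale. That scale understates differences of genes with low FPKM.

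The median log2 difference was 0.12 over the 36 members, 0.24 over the ATF4 branch, -0.19 over the sensors and 0.11 over the XBP1 and ATF6 branch, against -0.03 over all genes tested. Both cKO libraries lay above both Ctrl libraries for 9 of the 36 members (25%), against 16.2% of all genes, and below both for 3 (8.33%), against 16.6%. Within both replicate numbers, cKO lay above Ctrl for 19 members (52.8%), against 31.8% of all genes, and below Ctrl for 8 (22.2%), against 37.6%. In the ATF4 branch these counts were 11 of 15 above and 0 below. In the XBP1 and ATF6 branch they were 7 of 16 above and 5 below, and among the sensors 1 of 5 above and 3 below. Single libraries weighed on the medians: the ATF4 median was 0.02 without Ctrl library 1 and 0.06 without cKO library 2, and that of the XBP1 and ATF6 branch was -0.01 without Ctrl library 2 and 0.05 without cKO library 1. The sensors' median lay between -0.08 and -0.05 without cKO library 2 or either Ctrl library. These are descriptions of 4 libraries, since no test of a list was made.

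**Figure D1:**
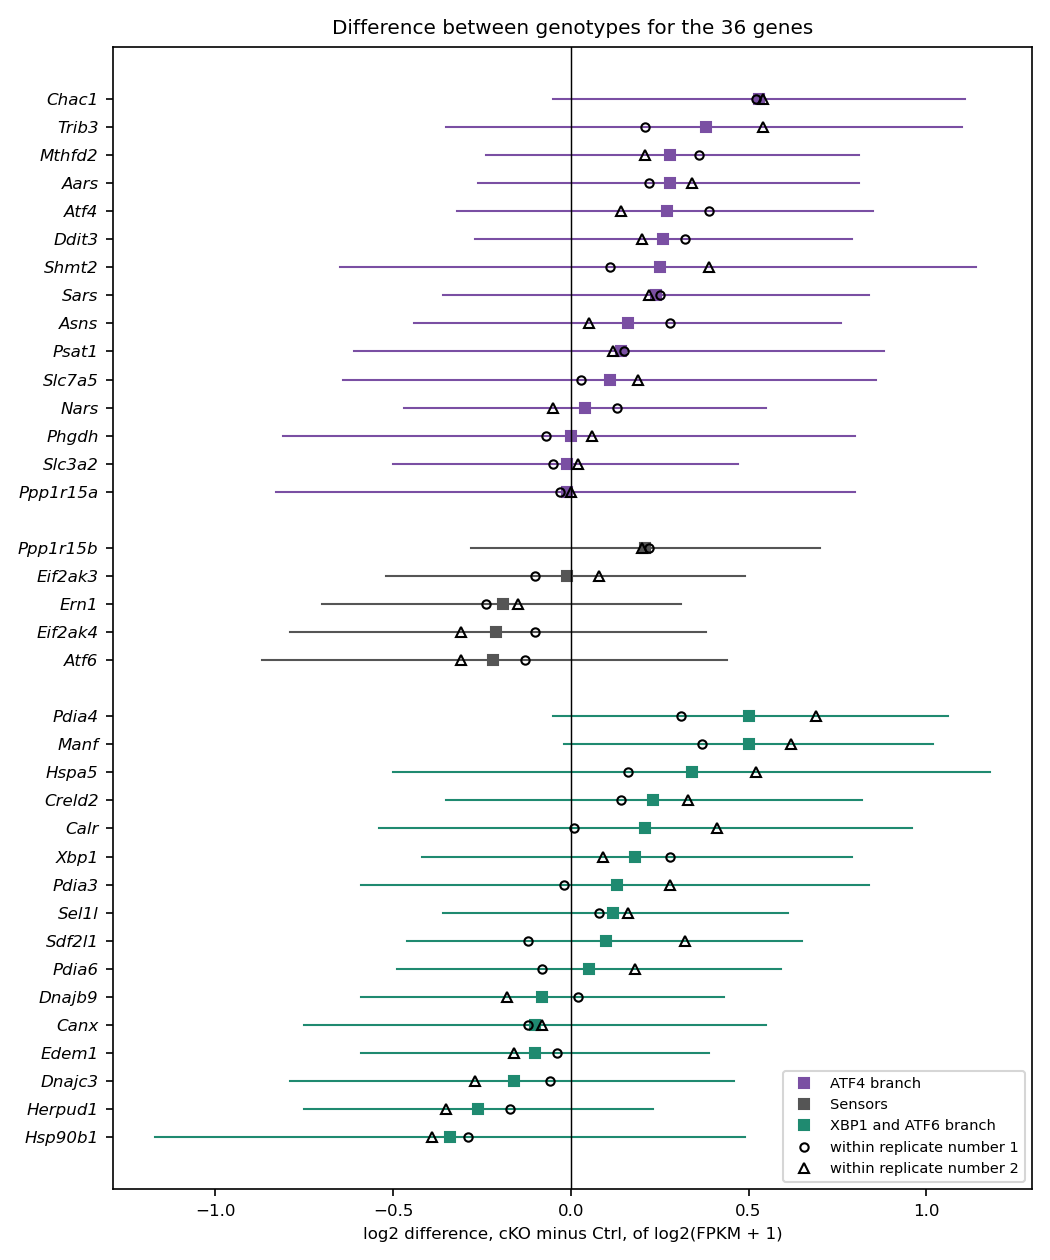
Log2 difference between cKO and Ctrl, of log2(FPKM + 1), for each of the 36 genes by branch. Squares are the estimates of limma with 95% intervals from 2 libraries per group, circles and triangles the differences within replicate numbers 1 and 2; every interval includes 0, and 12 of the 15 estimates of the ATF4 branch lie above it.

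Atf4 (ENSMUSG00000042406; chr15:80255184-80257541, plus strand), which encodes the factor that gives the branch its name, had the highest FPKM of the branch when averaged over the 4 libraries, although Psat1 and Phgdh lay above it in both libraries numbered 2. Gene coordinates here are those of GENCODE M21 on GRCm38. Atf4 measured 122 and 125 FPKM in cKO libraries 1 and 2, against 92.5 and 113 FPKM in Ctrl libraries 1 and 2 (log2 difference 0.27 ± 0.24, SE; adjusted p = 0.959). Both cKO libraries lay above both Ctrl libraries, although Ctrl 2 lay closer to the cKO libraries than to Ctrl 1. ATF4 is controlled mainly through translation, which RNA levels do not measure. In these bulk samples, fewer cells of a type and less RNA per cell cannot be told apart.

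Chac1 (ENSMUSG00000027313; chr2:119351229-119354381, plus strand), which encodes a glutathione-degrading enzyme and is a target of ATF4 and CHOP, had the largest estimate of the 36 members. It measured 2.06 and 2.16 FPKM in cKO, against 1.13 and 1.17 FPKM in Ctrl, with means 1.83-fold apart. The libraries of a genotype lay close together and the genotypes did not overlap (log2 difference 0.53 ± 0.24; unadjusted p = 0.0662, adjusted p = 0.959; 0.52 within number 1 and 0.54 within number 2). It was also the least abundant member, with an implied 57 and 91 reads in cKO and 32 and 45 in Ctrl, which limits its precision.

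Trib3, a pseudokinase gene that ATF4 raises and whose product restrains ATF4, measured 4.66 and 7.77 FPKM in cKO and 3.89 and 5.03 FPKM in Ctrl. The groups overlapped, and its difference was 0.38 ± 0.29. Ddit3, which encodes the factor CHOP, measured 11.2 and 9.14 FPKM in cKO and 8.75 and 7.82 FPKM in Ctrl, with no overlap between groups (0.26 ± 0.22). A retained-intron transcript made up 31.6% and 25.9% of the Ddit3 signal in cKO and 39.4% and 28.1% in Ctrl. Its protein-coding transcripts alone summed to 7.65 and 6.77 FPKM in cKO and 5.3 and 5.62 FPKM in Ctrl. Each of Atf4, Chac1, Trib3 and Ddit3 lay above Ctrl in cKO within both replicate numbers.

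Among enzymes of amino acid and one-carbon synthesis, the estimates ran from 0.00 to 0.28. Mthfd2, a mitochondrial folate enzyme, measured 8.12 and 8.61 FPKM in cKO, against 6.1 and 7.32 FPKM in Ctrl (0.28 ± 0.21), and was the only one of the 5 without overlap. Shmt2, the mitochondrial serine hydroxymethyltransferase, measured 29.9 and 55.1 FPKM in cKO and 27.7 and 41.9 FPKM in Ctrl (0.25 ± 0.36). Both Shmt2 libraries numbered 2 lay far above both numbered 1, so the spread within a genotype exceeded the difference between genotypes. Asns, asparagine synthetase, measured 42.2 and 48.9 FPKM in cKO and 34.6 and 47.4 FPKM in Ctrl (0.16 ± 0.24). Psat1, of serine synthesis, measured 97.8 and 136 FPKM in cKO and 87.9 and 125 FPKM in Ctrl (0.14 ± 0.30). Phgdh, which catalyses the first step of that pathway, measured 81.2 and 128 FPKM in cKO and 85.4 and 123 FPKM in Ctrl, a difference of 0.00 ± 0.33 with an interval from -0.81 to 0.80.

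Of the tRNA synthetases, Aars, for alanine, measured 32.2 and 39.6 FPKM in cKO and 27.5 and 31.1 FPKM in Ctrl, without overlap (0.28 ± 0.22). Sars, for serine, measured 83.8 and 102 FPKM in cKO and 70.1 and 86.8 FPKM in Ctrl (0.24 ± 0.24). Nars, for asparagine, was nearly level, at 61.5 and 60.5 FPKM in cKO and 56 and 62.6 FPKM in Ctrl (0.04 ± 0.21). The transporter chains Slc3a2 and Slc7a5, which pair to import large neutral amino acids, differed in how even they were. Slc3a2 measured 40.3 and 40.1 FPKM in cKO and 41.7 and 39.5 FPKM in Ctrl (-0.01 ± 0.20), among the most even values of all members. Slc7a5 measured 28.4 and 44.8 FPKM in cKO and 27.8 and 39.1 FPKM in Ctrl (0.11 ± 0.30), and split by replicate number. Ppp1r15a, the stress-induced subunit that brings a phosphatase to eIF2α and so ends the response, measured 5.68 and 9.46 FPKM in cKO and 5.83 and 9.44 FPKM in Ctrl (-0.01 ± 0.33), nearly equal between genotypes within each number.

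**Figure D2:**
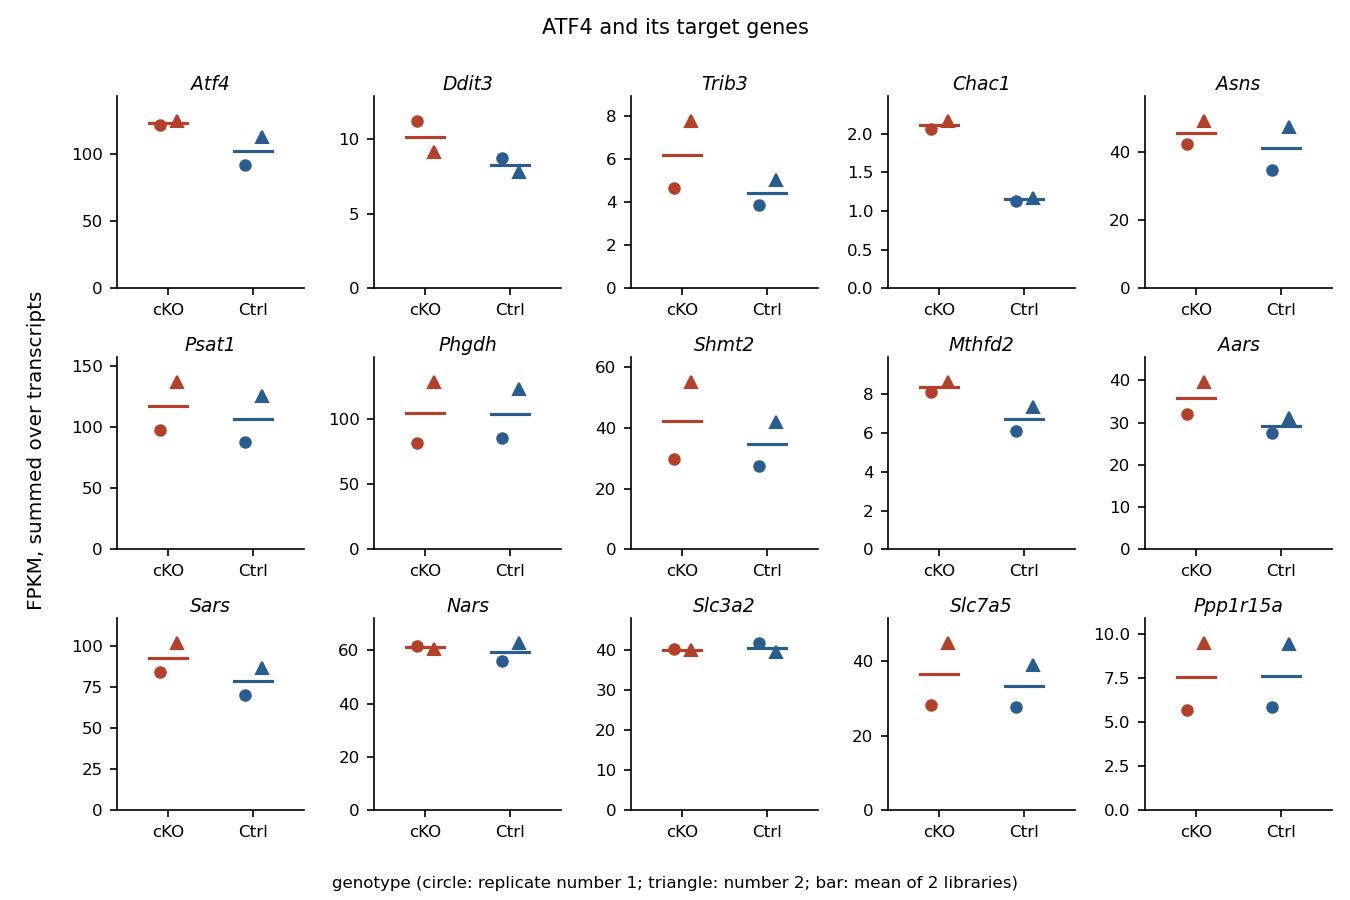
FPKM of the 15 genes of the ATF4 branch in each library, cKO left and Ctrl right, with circles for replicate number 1, triangles for number 2, bars for the mean of 2 libraries and axes from 0. Chac1 shows separate groups (2.06 and 2.16 against 1.13 and 1.17 FPKM), whereas Phgdh, Shmt2, Slc7a5 and Ppp1r15a split by replicate number.

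The promoter of Chac1 is shown because this gene had the largest estimate and because ATF4, paired with C/EBP factors, binds the C/EBP-ATF response element (CARE). Promoter windows came from RefSeq (GRCm38.p6; GRCm38 is the build in the submitters' processing notes) and run from 250 bases before to 50 bases after an annotated start. They matched 31 of the 36 members with 33 windows; Atf6, Manf, Nars, Ppp1r15b and Slc7a5 had no entry. The CARE was searched as TGATGNAA on both strands and was found in 3.97% of 32851 windows. Among members it was found in 5 genes, of which Aars, Asns, Chac1 and Trib3 belong to the ATF4 branch and Herpud1 to the XBP1 and ATF6 branch. The Aars window held it at 2 places. A match is a description of letters and not evidence of binding. The 250 bases before the start are printed 5′ to 3′ on the gene's strand, with the fixed letters of the match in capitals; here the element lies on the opposite strand.
Chac1 promoter, chr2:119350992-119351241, plus strand: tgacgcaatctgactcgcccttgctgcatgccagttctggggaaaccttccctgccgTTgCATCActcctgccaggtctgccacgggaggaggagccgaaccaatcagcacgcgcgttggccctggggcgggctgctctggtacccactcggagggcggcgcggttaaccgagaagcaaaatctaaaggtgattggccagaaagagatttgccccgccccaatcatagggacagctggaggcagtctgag
The match in Chac1 begins at base -193, counted from the start site. The other ATF4-branch genes with a match had estimates of 0.38 (Trib3), 0.28 (Aars) and 0.16 (Asns), and Herpud1 had -0.26, so matching genes lay on both sides of 0.

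Of the 5 sensors and regulators, 3 lay below Ctrl in cKO within both replicate numbers and 1 lay above. Eif2ak4, which encodes GCN2, the kinase that senses uncharged tRNA, measured 2.86 and 3.11 FPKM in cKO, against 3.14 and 4.1 FPKM in Ctrl. The groups did not overlap, but by a small margin (-0.21 ± 0.24, limma adjusted p = 0.959). The main Eif2ak4 transcript alone, with 39 exons, measured 0.73 and 1.93 FPKM in cKO and 3.14 and 2.28 FPKM in Ctrl. Other coding transcripts ran the opposite way within number 1, such as one with 38 exons at 0.65 FPKM in cKO 1 and 0 in Ctrl 1. Ern1, which encodes IRE1α, measured 6.84 and 6.53 FPKM in cKO and 8.24 and 7.36 FPKM in Ctrl, also without overlap (-0.19 ± 0.21). Atf6 measured 15.5 and 10.5 FPKM in cKO and 17 and 13.3 FPKM in Ctrl (-0.22 ± 0.27), and its groups overlapped because libraries numbered 2 lay lower in both genotypes. Eif2ak3, which encodes PERK, was level at 7.1 and 7.91 FPKM in cKO and 7.71 and 7.45 FPKM in Ctrl (-0.01 ± 0.20). Ppp1r15b, the constitutive counterpart of Ppp1r15a, lay on the other side, at 28.4 and 31.1 FPKM in cKO and 24.2 and 26.9 FPKM in Ctrl, without overlap (0.21 ± 0.20).

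In the XBP1 and ATF6 branch the letters of the ER stress response elements were read first, since ATF6 and XBP1 are known to act through them. The ERSE was searched as CCAAT and CCACG with any 9 bases between them, ERSE-II as ATTGG and CCACG with any 1 base between them, and the UPRE as TGACGTGG, each on both strands; the end of the ERSE, CCACG, is also the end of ERSE-II, and its reverse complement lies within the UPRE. An ERSE was found in 0.119% of the 32851 windows and in 7 of the 33 member windows, all 7 in this branch. ERSE-II was found in 0.0365% of all windows and in 1 member, Herpud1, and the UPRE in 0.676% of all windows and in 0 member windows, which says nothing of sites outside them. The 8 ERSE matches are printed in the orientation of the motif, with its fixed letters in capitals, to show the shared frame and the unshared spacer.
Hspa5, chr2:34772025-34772043: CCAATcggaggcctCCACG
Hsp90b1 distal, chr10:86705638-86705656: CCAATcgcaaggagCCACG
Hsp90b1 proximal, chr10:86705533-86705551: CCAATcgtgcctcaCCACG
Calr, chr8:84847075-84847093: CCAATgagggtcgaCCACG
Canx, chr11:50325800-50325818: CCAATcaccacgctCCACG
Pdia6, chr12:17266491-17266509: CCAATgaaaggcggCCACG
Dnajc3, chr14:118937827-118937845: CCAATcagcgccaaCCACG
Creld2, chr15:88819520-88819538: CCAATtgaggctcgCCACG
The 250 bases before the start of Herpud1 are printed on the gene's strand, with the fixed letters of each match in capitals, because this promoter alone among the members held elements of both pathways, a CARE and ERSE-II.
Herpud1 promoter, chr8:94386179-94386428, plus strand: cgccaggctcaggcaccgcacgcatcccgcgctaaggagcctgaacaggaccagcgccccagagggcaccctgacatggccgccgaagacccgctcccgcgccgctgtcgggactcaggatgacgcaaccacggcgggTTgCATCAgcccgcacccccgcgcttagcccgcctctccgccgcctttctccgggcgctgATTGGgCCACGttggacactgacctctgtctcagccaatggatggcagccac

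**Figure D3:**
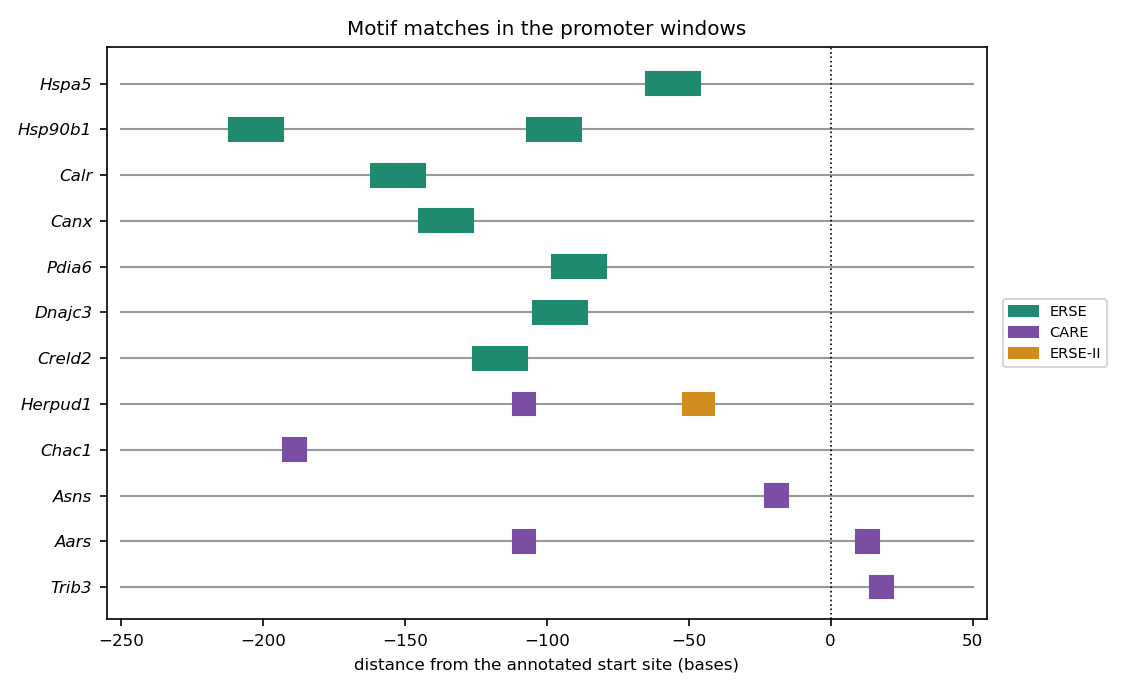
Matches to the ERSE, ERSE-II and CARE in the promoter windows of the 12 members that hold one, by distance in bases from the annotated start site, with each gene's direction of transcription to the right. The ERSE matches begin between base -212 (Hsp90b1) and base -65 (Hspa5), and 2 CARE matches, in Aars and Trib3, lie after the start site.

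Xbp1, the factor whose mRNA IRE1 cuts during ER stress, measured 87.6 and 66.2 FPKM in cKO, against 72 and 62.3 FPKM in Ctrl (0.18 ± 0.25; 0.28 within number 1 and 0.09 within number 2). The table lists 4 Xbp1 transcripts whose shortest annotated intron is 300 nt, and the much shorter stretch that IRE1 removes is not resolved among them. The level of the cut form was therefore not analysed here.

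The ER chaperones did not share a direction. Hspa5 (ENSMUSG00000026864; chr2:34771970-34777547, plus strand) encodes BiP, the main ER chaperone and a standard readout of ER stress. It measured 245 and 191 FPKM in cKO, against 219 and 133 FPKM in Ctrl (0.34 ± 0.34; 0.16 within number 1 and 0.52 within number 2). Within each replicate number cKO lay above Ctrl, yet the groups overlapped, because both libraries numbered 2 lay below those numbered 1 of the same genotype. Hsp90b1 (ENSMUSG00000020048; chr10:86690209-86705509, minus strand), the ER member of the HSP90 family, had an estimate of the opposite sign. It measured 143 and 92 FPKM in cKO and 176 and 120.4 FPKM in Ctrl (-0.34 ± 0.33; -0.29 and -0.39 within the numbers). The ratio of Hspa5 to Hsp90b1 FPKM within a library was 1.71 and 2.08 in cKO and 1.25 and 1.1 in Ctrl. This ratio does not depend on library scaling, and its groups did not overlap. It was chosen after the values were seen, and 55 of the 120 ratios among genes of this branch also did not overlap; 2 libraries against 2 allow no exact two-sided p below 0.333.

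Calr, the lectin chaperone calreticulin, was the most abundant of the 36 members, at 328 and 318 FPKM in cKO and 326 and 239 FPKM in Ctrl (0.21 ± 0.30). Retained-intron transcripts made up 26.6% and 21.5% of the Calr signal in cKO and 30.8% and 21.9% in Ctrl, with the larger share in the libraries numbered 1. Canx, its membrane-bound relative calnexin, measured 165 and 138 FPKM in cKO and 179 and 146 FPKM in Ctrl (-0.10 ± 0.26). The co-chaperone Dnajc3, an inhibitor of PERK, measured 15.9 and 11 FPKM in cKO and 16.5 and 13.5 FPKM in Ctrl (-0.16 ± 0.25). Dnajb9, a co-chaperone of BiP, measured 6.63 and 6.34 FPKM in cKO and 6.51 and 7.29 FPKM in Ctrl (-0.08 ± 0.21). Sdf2l1, another ER stress-induced partner of BiP, measured 10.4 and 13.8 FPKM in cKO and 11.4 and 10.8 FPKM in Ctrl (0.10 ± 0.22). For none of these 5 did the groups separate.

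Pdia4 (ENSMUSG00000025823; chr6:47796141-47813430, minus strand), a protein disulfide isomerase induced by ER stress, had the clearest values of the isomerases. It measured 84.9 and 101 FPKM in cKO, against 68.1 and 61.9 FPKM in Ctrl, with means 1.43-fold apart and no overlap (0.50 ± 0.22; unadjusted p = 0.0673, adjusted p = 0.959; 0.31 within number 1 and 0.69 within number 2). Pdia3, which works with calreticulin and calnexin on glycoproteins, measured 142 and 118 FPKM in cKO and 144 and 97.3 FPKM in Ctrl (0.13 ± 0.29). Pdia6 measured 84.8 and 93.2 FPKM in cKO and 89.9 and 82 FPKM in Ctrl (0.05 ± 0.22). Both of these overlapped and had opposite signs within the 2 numbers.

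Manf (ENSMUSG00000032575; chr9:106838312-106891979, minus strand) and Creld2 encode small ER proteins that are secreted under stress. Manf measured 53 and 52.8 FPKM in cKO, against 40.7 and 33.9 FPKM in Ctrl, with means 1.42-fold apart (0.50 ± 0.21; 95% interval -0.02 to 1.02; adjusted p = 0.959). The cKO libraries were nearly equal and both lay above Ctrl, by 0.37 within number 1 and 0.62 within number 2. The main Manf transcript, with 3 exons, showed the same order, at 33.2 and 35.9 FPKM in cKO and 25.8 and 21.8 FPKM in Ctrl. Creld2 measured 15.5 and 13.2 FPKM in cKO and 14.1 and 10.3 FPKM in Ctrl (0.23 ± 0.24), with overlap.

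The degradation genes differed among themselves. Herpud1 (ENSMUSG00000031770; chr8:94386438-94395377, plus strand), which acts with the ER ubiquitin ligase complex and is induced by ER stress, lay lower in cKO. It measured 41.3 and 38.6 FPKM in cKO against 46.6 and 49.5 FPKM in Ctrl, without overlap (-0.26 ± 0.20; -0.17 and -0.35 within the numbers). Edem1, which directs misfolded glycoproteins to degradation, measured 14.9 and 13.1 FPKM in cKO and 15.4 and 14.8 FPKM in Ctrl (-0.10 ± 0.20). Sel1l, the partner of the ligase HRD1, measured 35.8 and 34.6 FPKM in cKO and 33.7 and 30.9 FPKM in Ctrl, without overlap but by a small margin (0.12 ± 0.20). Retained-intron transcripts made up 45.1% and 39.7% of the Sel1l signal in cKO and 47% and 43% in Ctrl.

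**Figure D4:**
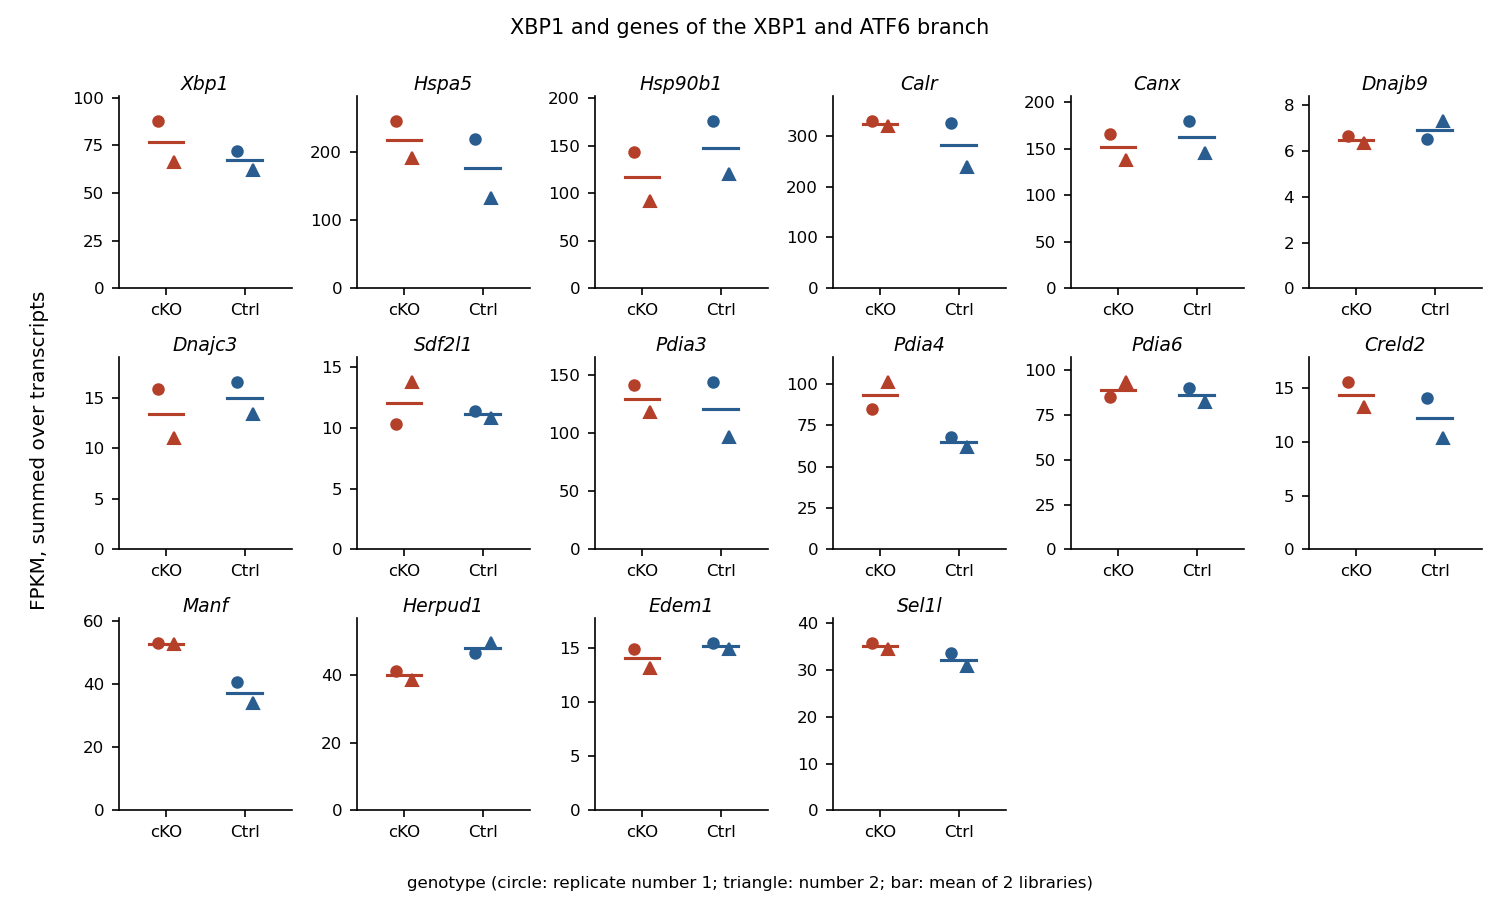
FPKM of Xbp1 and the 15 other genes of the XBP1 and ATF6 branch in each library, cKO left and Ctrl right, with circles for replicate number 1, triangles for number 2, bars for the mean of 2 libraries and axes from 0. Pdia4 and Manf lie higher and Herpud1 lower in both cKO libraries, while the triangles of Hspa5, Hsp90b1 and Pdia3 lie below the circles in both genotypes.

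Genes with an ERSE did not share a direction between genotypes. Their estimates were 0.34 for Hspa5, 0.23 for Creld2, 0.21 for Calr, 0.05 for Pdia6, -0.10 for Canx, -0.16 for Dnajc3 and -0.34 for Hsp90b1. The difference between replicate numbers, number 2 minus number 1, came to -0.59 for Hsp90b1, -0.54 for Hspa5 and -0.39 for Dnajc3. It was -0.32 for Creld2, -0.28 for Canx, -0.24 for Calr and 0.00 for Pdia6. So 6 of the 7 were lower in the libraries numbered 2 in both genotypes, against 33.0% of all genes. A fall was not particular to genes with an ERSE. Branch genes in which none was found ran from -0.41 (Pdia3) and -0.30 (Xbp1) to 0.16 (Sdf2l1).

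The ATF4 branch and the XBP1 and ATF6 branch lay on opposite sides when libraries were compared by replicate number. In the XBP1 and ATF6 branch, 11 of 16 genes (68.8%) lay lower in the library numbered 2 than in that numbered 1 in both genotypes, against 33.0% of all genes, and 0 lay higher in both, against 46.6%. In the ATF4 branch, 12 of 15 (80%) lay higher in the libraries numbered 2 in both genotypes and 2 lay lower. The median log2 difference, number 2 minus number 1, was -0.19 in the XBP1 and ATF6 branch, 0.29 in the ATF4 branch and 0.08 over all genes. Other ER gene lists, described below, did not share the fall. The 23 other ER folding genes had a median of -0.02, with 8 (34.8%) lower and 7 (30.4%) higher in number 2 in both genotypes. Other degradation genes had a median of 0.10 and genes of ER translocation and export one of 0.09. For the 20 other ATF4 pathway genes the median was 0.34, with 13 (65%) higher in both genotypes. Depth was greater and the retained-intron share smaller in the libraries numbered 2, as given above. Keratinocyte markers also differed by number: the 5 suprabasal markers tested had a median of -0.78 and the 5 basal markers one of 0.42 (number 2 minus number 1). Of the 5 suprabasal markers, 4 lay lower in the libraries numbered 2 in both genotypes and 1, Lor, lay higher. Lor measured 125 and 128 FPKM in cKO libraries 1 and 2 and 105 and 134 FPKM in Ctrl libraries 1 and 2. Krt10, a suprabasal keratin, measured 12142 and 6217 FPKM in cKO libraries 1 and 2 and 15342 and 5382 FPKM in Ctrl libraries 1 and 2. Krt5, a basal keratin, measured 500.4 and 968 FPKM in cKO libraries 1 and 2 and 897 and 1332 FPKM in Ctrl libraries 1 and 2. The part of depth, retained introns and these keratinocyte states in the pattern of the branches was not tested. What the replicate number stands for is not stated in the labels.

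**Figure D5:**
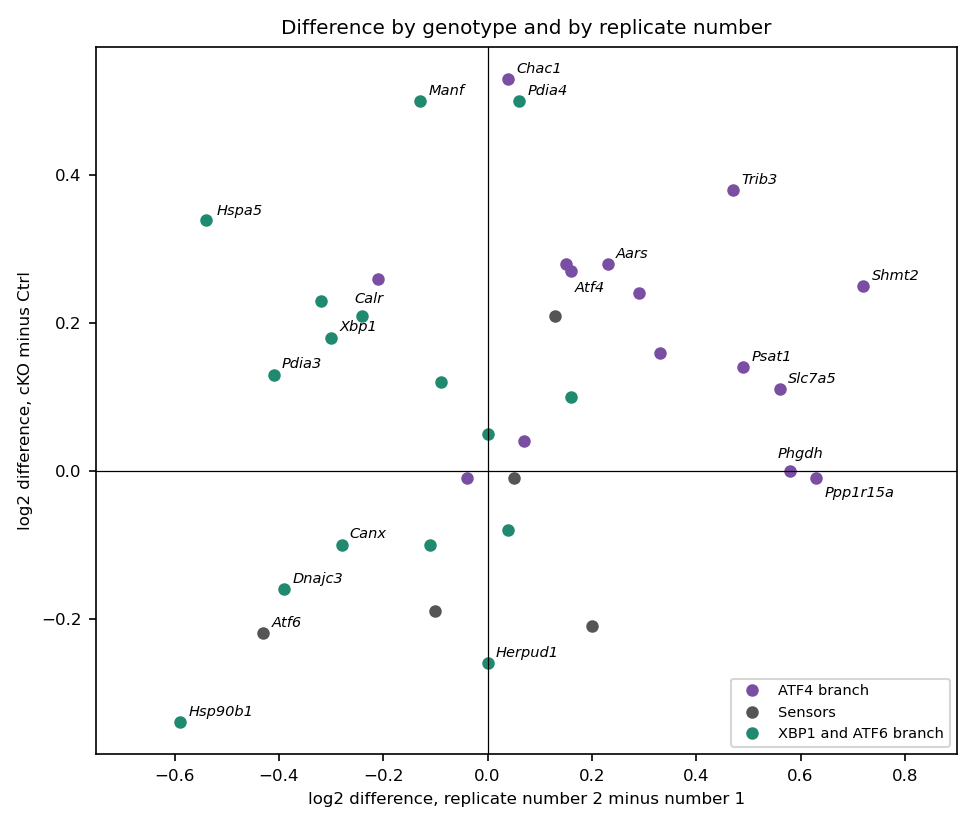
Each of the 36 genes by its log2 difference between replicate numbers (number 2 minus number 1, horizontal) and between genotypes (cKO minus Ctrl, vertical), both of log2(FPKM + 1). Genes of the ATF4 branch lie mostly to the right of 0 and those of the XBP1 and ATF6 branch mostly to the left, with medians of 0.29 and -0.19.

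Exon number went with the genotype difference across the whole table. Protein-coding genes whose main transcript has 1 to 3 exons had a median log2 difference of 0.15, those with 4 to 10 of 0.03, those with 11 to 20 of -0.06 and those with over 20 of -0.15. The members' medians in the same classes were 0.21 (7 genes), 0.22 (12), 0.00 (13) and -0.04 (4). Chac1 and Manf have 3 exons in their main transcript, Pdia4 has 10, Hsp90b1 has 18 and Eif2ak4 has 39. Other members did not follow that order. Aars has 21 exons and an estimate of 0.28, and Shmt2 has 12 and 0.25. Herpud1 has 8 exons and an estimate of -0.26, and Dnajb9 has 3 and -0.08. Marker genes were also compared between genotypes. In the limma fit with genotype alone, 0 of those tested were called at an adjusted p under 0.05. The counts that follow stand beside 37.6% of all genes lower in cKO within both numbers. Of the 5 suprabasal keratinocyte markers tested, 1 was higher in cKO within both numbers, 1 was lower and 3 were mixed. All 5 leukocyte markers lay lower in cKO within both numbers, with sums of 170.2 and 269 FPKM in cKO and 295 and 367 in Ctrl. All 5 basal keratinocyte markers did too, with sums of 2079 and 3324 FPKM in cKO and 3255 and 4088 in Ctrl. Melanocyte markers were lower in cKO within both numbers for 4 of 5, with sums of 389 and 409.8 FPKM in cKO and 506 and 436 in Ctrl, and fibroblast markers for 3 of 6, with sums of 84.6 and 92 FPKM in cKO and 116 and 114 in Ctrl. The part of exon number and of these cells in the members' values was not tested.

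Further lists held 140 genes, of which 128 were tested, and included mitochondrial stress genes and cytosolic heat shock genes. Medians lay near that of all genes in most lists. In the limma fit with genotype alone, 0 of the 128 were called at an adjusted p under 0.05. At an unadjusted p under 0.05 there were 3 higher and 1 lower in cKO, against 3.29% and 1.68% of all genes. The median over the 128 was 0.06. The counts that follow stand beside 16.2% of all genes above and 16.6% below Ctrl in both cKO libraries, and 31.8% higher and 37.6% lower within both replicate numbers. Over the 128, both cKO libraries lay above both Ctrl libraries for 32 (25%) and below for 16 (12.5%). Within both numbers, 58 (45.3%) were higher and 29 (22.7%) lower in cKO, so the members' shares were not particular to them. The 20 other ATF4 pathway genes had a median of -0.05, with 3 above (15%) and 5 below (25%) Ctrl in both cKO libraries, beside the median of 0.24 in the ATF4 branch. Their most abundant members were Slc38a2, a glutamine transporter gene (87.2 and 70.7 FPKM in cKO, 89.4 and 89.9 in Ctrl), and Nupr1, a stress-induced regulator (62.8 and 58.7 FPKM in cKO, 72.2 and 74.8 in Ctrl). The 17 other cytosolic tRNA synthetases had a median of 0.02, with 6 higher and 6 lower within both numbers. Gars, for glycine, measured 79.6 and 92 FPKM in cKO and 72 and 88.8 in Ctrl, and Qars, for glutamine, 70.5 and 77.7 FPKM in cKO and 81.7 and 84.6 in Ctrl.

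The 13 genes of eIF2, its exchange factor eIF2B and other kinases had a median of -0.03. Eif2s3x and Eif2s2, which encode eIF2 subunits, had differences of 0.09 ± 0.31 and -0.15 ± 0.30. The 23 other ER folding genes had a median of 0.04, and their most abundant members P4hb, the founding disulfide isomerase, and Ppib, an ER prolyl isomerase, had 0.07 ± 0.32 and 0.04 ± 0.26. The 15 other degradation genes had a median of 0.07, with Vcp, the ATPase that extracts proteins from the ER, at 0.07 ± 0.25 and Os9, a lectin of the pathway, at 0.13 ± 0.21. The 22 genes of ER translocation and export had a median of 0.10, with 8 of 22 above (36.4%, against 16.2% of all genes) and 2 below (9.09%, against 16.6%) in both cKO libraries. Ssr2, of the translocon-associated complex, measured 109.6 and 137 FPKM in cKO and 92.1 and 102 in Ctrl, and its partner Ssr4 98.2 and 102 FPKM in cKO and 95.3 and 107 in Ctrl.

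Chaperones outside the ER were set beside the ER genes. The 8 mitochondrial stress genes had a median of 0.28, with 7 higher and 1 lower within both numbers, and the 10 cytosolic heat shock genes a median of 0.26, with 8 higher and 2 lower. Hspd1, the mitochondrial chaperonin, measured 166 and 140.4 FPKM in cKO and 129.7 and 114 in Ctrl (0.33 ± 0.25), and Hspa9, the mitochondrial HSP70, 125 and 128 FPKM in cKO and 106 and 125 in Ctrl (0.14 ± 0.24). Hsp90ab1, an abundant cytosolic chaperone, measured 702 and 959 FPKM in cKO and 655 and 820.3 in Ctrl (0.16 ± 0.40). Hspa8, the constitutive cytosolic HSP70, measured 638 and 787 FPKM in cKO and 637 and 618 in Ctrl (0.17 ± 0.36). None of these 4 passed the test (adjusted p from 0.959 to 0.972).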

How the data were processed

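RNA of 4 keratinocyte libraries was prepared with a NEBNext Ultra kit for an Illumina HiSeq instrument, per the labels' protocols. These name poly(A) isolation or ribosomal RNA removal without saying which was used. GRCm38, HISAT2, HTSeq and fastp are named, with no versions, in the submitters' processing notes. Strandedness is not stated, so overlapping antisense transcripts cannot be told apart.

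The authors deposited 1 value per transcript (110295 transcripts) and named no unit. The deposited values were read as FPKM from the values themselves: multiplied by GENCODE M21 length (known for 98.04% of transcripts), they summed to 1015550 to 1021998 in the 4 libraries, while plain sums ran from 505075 to 631651. RPKM would look the same. In the table the Ctrl libraries carry the name WT, and columns were matched by group and number. Dates had replaced 162 symbols, all restored from transcript IDs. Low values of transcripts of 300 to 1000 nt were whole multiples of 1 read, within 0.2 reads, in 94.4% to 95.1% of cases, which gave the implied depths. Read numbers were computed from FPKM, transcript length and implied depth, so they are estimates and not observed counts. Transcripts without a known length add nothing to them. They bear on counting error and not on variation between libraries.

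FPKM were summed per symbol. limma was run on log2(FPKM + 1) for the 13817 symbols that reached 1 FPKM in 2 or more libraries, using a mean-variance trend, genotype alone and Benjamini-Hochberg adjustment at 0.05. This left 2 residual degrees of freedom. The fit was also run on simulated data with independent noise and no effect of replicate number. That run does not show how the fit performs on these libraries. Named genes are the 36 members, Mettl14 and, of each other pathway list, any gene past the test and the 2 most abundant; genes named beyond these were picked with their values in view. Members and lists were chosen with earlier results of these data known. A planned look at ER retention tails was not made. The software was limma 3.58.1 in R 4.3.3, with pandas 2.3.3, numpy 2.4.6 and matplotlib 3.10.9 in Python 3.11.15. Alternatives covered pseudocount, filter, scaling, transcripts summed, trend, a block for replicate number and leaving out each library.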

Additional observations from a re-analysis of the deposited data

How the results depend on the processing

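In the 13 alternatives run, no member passed limma's test except Manf with the replicate number as a block. With this replicate block 626 genes lay higher and 274 lower at an adjusted p under 0.05 of 13817 tested, and the members past the test were 1 in the XBP1 and ATF6 branch, Manf (0.50; adjusted p = 0.0438), with Pdia4 at 0.0503. Of the 128 genes tested from the further lists, 6 higher and 2 lower passed limma's test with the block. Among them were Sil1 (adjusted p = 0.018), Hars (0.0282), Eif2b1 (0.0313) and Crebrf (0.034). The labels do not say that the numbers pair animals, though the difference between numbers correlated between genotypes at r = 0.722. With any 1 library left out, the lone library of its group is assumed to vary like the other group, and limma called 5 to 51 genes higher and 3 to 20 lower, with 0 members among them. The branch median then lay between -0.16 and -0.05 for the sensors, between -0.01 (without Ctrl replicate 2) and 0.16 for the XBP1 and ATF6 branch, and between 0.02 (without Ctrl replicate 1) and 0.38 for the ATF4 branch; the ATF4 value was 0.06 without cKO replicate 2 and 0.32 without cKO replicate 1. Under the same omissions the log2 difference crossed 0 for 18 members. The ranges were -0.06 to 0.38 (Asns), -0.12 to 0.39 (Psat1), -0.33 to 0.32 (Phgdh), -0.18 to 0.68 (Shmt2), -0.04 to 0.12 (Nars), -0.05 to 0.02 (Slc3a2), -0.21 to 0.43 (Slc7a5) and -0.34 to 0.31 (Ppp1r15a). They were -0.08 to 0.05 (Eif2ak3), -0.48 to 0.04 (Atf6), -0.02 to 0.38 (Xbp1), -0.02 to 0.70 (Hspa5), -0.01 to 0.44 (Calr) and -0.25 to 0.05 (Canx). They were -0.41 to 0.08 (Dnajc3), -0.09 to 0.29 (Sdf2l1), -0.15 to 0.41 (Pdia3) and -0.02 to 0.12 (Pdia6). Scaling to equal column sums gave -0.01 for Nars and for Pdia6. Median-ratio scaling gave 0.03 for Phgdh and 0.02 for Slc3a2, Ppp1r15a and Eif2ak3. Counting the most abundant transcript alone gave 0.00 for Phgdh and 0.06 for Eif2ak3, and protein-coding transcripts alone 0.00 and 0.04. The cause was not tested. Scaling moved the median of all genes from -0.034 as deposited to -0.084 with equal column sums and -0.001 with median ratios. Depth limits Chac1 most, the member with the fewest implied reads, followed by Ddit3 and Trib3.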

Other observations

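Beyond the 36 genes, 4 genes of the other pathway lists reached an unadjusted p under 0.05 in limma, and they are named because of these values. Sil1, the nucleotide exchange factor of BiP, measured 17.6 and 22.7 FPKM in cKO, against 11 and 11.9 FPKM in Ctrl (log2 difference 0.75 ± 0.22, SE; unadjusted p = 0.0147). Eif2b1, a subunit of the exchange factor eIF2B, measured 42.4 and 50.4 FPKM in cKO and 30.6 and 32.1 FPKM in Ctrl (0.55 ± 0.21; unadjusted p = 0.0405). Hars, the histidine tRNA synthetase, measured 79.2 and 84.9 FPKM in cKO and 55.2 and 58.2 FPKM in Ctrl (0.53 ± 0.21; unadjusted p = 0.0468). Crebrf, a regulator induced by ER stress and nutrient shortage, measured 8.23 and 6.41 FPKM in cKO and 12.1 and 13.7 FPKM in Ctrl (-0.74 ± 0.22; unadjusted p = 0.0167). The groups of all 4 were separate, which adds no support because the genes were chosen by p. Over all genes, 3.29% reached such a p in the higher and 1.68% in the lower direction. Both cKO libraries lay above both Ctrl libraries for 16.2% of all genes and below for 16.6%. For all 4 genes the adjusted p was 0.959 in the limma fit with genotype alone.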
